A study of Mus musculus and Homo sapiens with 33 samples.

Results

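The genes described here are 10 targets and brakes of the RAS-MAPK pathway: DUSP4, DUSP5, DUSP6, SPRY2, SPRY4, SPRED1, SPRED2, ETV4, ETV5 and PHLDA1. They were taken by gene symbol from a human comparison table of 20347 genes, which lists all 10. The same letters in mouse case found 2 of them, Dusp5 and Phlda1, among the 2509 rows of a mouse gene table. Spred1 and Spred2 were also found by position as hosts of 2 of the 472 circular RNAs in a mouse drug panel.

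RAS proteins pass a signal from cell-surface receptors through the kinases RAF, MEK and ERK, and ERK then switches on genes that feed back on the same route. DUSP4, DUSP5 and DUSP6 are phosphatases that remove phosphate from ERK or its relatives, while the Sprouty (SPRY) and SPRED proteins hold back the steps around RAS and RAF. ETV4 and ETV5 are ETS-family transcription factors that carry ERK output to DNA, and PHLDA1 is a gene induced by growth factors. In lung cancer, where mutations that activate this route are common, the transcripts of these genes are widely used as a readout of ERK activity.

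Total RNA was sequenced in 33 libraries, 3 in each of 11 groups, and 3 comparisons of that series touch these genes. Cells of the human line H358, from a non-small-cell lung tumour, were compared between overexpression of the circular RNA cEMSY and an empty vector (EV) in cells labelled wild type (WT). LLC1, a mouse Lewis lung carcinoma line labelled non-small-cell lung cancer, was compared in the same way between cEmsy overexpression and EV in WT cells. WT LLC1 cells were also sampled after 48 h with DMSO, the solvent control, or with doxorubicin (4 mM), bortezomib (100 nM), oxaliplatin (500 uM), dactinomycin (1 uM), (R)-crizotinib (10 uM) with cisplatin (50 uM), or pemetrexed (2.5 uM) with cisplatin (2.5 uM). The labels do not say whether an overexpressing line was 1 clone or a pool, how long it was kept, or whether libraries came from separate cultures. P-values therefore measure the spread between these libraries, which may be technical.

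The 3 stretches of mouse sequence below show the DNA before a member measured in LLC1 and the junctions that define the members' circles. The first is the DNA just before Dusp5, of the 2 members in the LLC1 gene table the one with a promoter window, at chr19:53528895-53529108 on the plus strand of GRCm38.p6, from RefSeq. It ends at the base before the gene start of GENCODE M21. It holds the first 214 of the window's 250 bases before the RefSeq start, which lies further downstream. Its capitals mark a pair of adjoining CArG boxes, the element bound by serum response factor. They lie 46 to 37 and 36 to 27 bases before the GENCODE start.
Dusp5 upstream: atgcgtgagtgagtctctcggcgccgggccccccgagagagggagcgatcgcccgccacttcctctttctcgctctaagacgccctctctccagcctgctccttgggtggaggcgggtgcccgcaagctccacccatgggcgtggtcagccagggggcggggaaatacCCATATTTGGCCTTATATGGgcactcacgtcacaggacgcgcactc
The next lines give the back-splice junctions of the Spred1 and Spred2 circles, with 30 bases on each side, read from GENCODE M21 transcript sequences (mm10). Lower case is the end of the last exon in the circle and capitals are the start of its first exon, which the junction joins in an order that the linear transcript does not have.
Spred1 circle, chr2:117152992-117172086, plus strand: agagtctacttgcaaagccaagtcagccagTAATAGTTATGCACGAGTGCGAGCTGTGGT
Spred2 circle, chr11:19998120-20008477, plus strand: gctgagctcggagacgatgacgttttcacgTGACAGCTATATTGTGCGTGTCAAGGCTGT

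RefSeq promoter windows, from 250 bases before to 50 after a transcript start, matched 6 of the 10 members by symbol and gave 7 windows. CCGGAAG, a strict form of the ETS site, the AP-1 site TGANTCA and the cyclic AMP response element TGACGTCA were searched on both strands. None of them is contained in another, and no window of a member held any of them. The same letters were found in 8.86%, 7.81% and 1.79% of 32851 mouse windows. The GC box GGGCGG was found in the windows of Dusp5, Spred1 and Spred2 and in 1 of the 2 windows of Etv5, and in 35.7% of all windows. The CArG box, searched only after the Dusp5 window had been seen, was found in no other window of a member. It was found in 1.63% of all windows, and 0.0183% held 2 or more. These are matches of letters, looser forms of the ETS site were not searched, and binding was not measured.

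In H358 the values come from the authors' deposited table, which gives for each gene a mean signal over the libraries, a log2 fold change of cEMSY overexpression over EV with its standard error (SE), and an adjusted p-value. Levels per library were not used here, so no spread between libraries can be shown for this line. In the authors' deposited table EMSY, the host gene of the circle, stood 14.3-fold higher (95% interval 12.9 to 15.8), the direction of the label. Epithelial markers were listed for 6 of 6 genes in the authors' deposited table, with mean signals from 40.7 to 41881, and 5 of them were lower with overexpression. Of 4 lung epithelial markers, NAPSA was listed at a mean of 16.1 in the authors' deposited table and was not called, while NKX2-1, SFTPB and SFTPC were not listed. Leukocyte markers were listed for 2 of 5 genes, endothelial for 2 of 4 and fibroblast for 3 of 5, and PTPRC, CD3E, VWF and KDR were among those not listed. Of these, CD68 and CDH5 were lower. No marker of any list was higher with overexpression, and the part of the epithelial markers' fall in the results below was not tested.

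Most of the feedback genes were higher in H358 cells that overexpressed cEMSY. At the authors' adjusted p of 0.05, 8 of 10 were higher, against 15.6% of the 19154 genes with an adjusted p in the authors' deposited table. SPRED1 was lower, as were 16.8% of those genes, and SPRY2 was not called. The median log2 fold change of the 10 members was 0.66, beside 0.03 over all 19154 genes of the authors' deposited table. Every member had a mean signal above 200, so the genes with a mean of 200 or more are a closer background, chosen after the members' means had been seen. Of those 9542 genes in the authors' deposited table, 18.6% were higher and 28.4% lower, with a median log2 fold change of -0.07. In these bulk libraries, fewer cells with a transcript and less of it per cell cannot be told apart.

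The 3 phosphatases among the members were higher with cEMSY. DUSP5 (ENSG00000138166.6), a phosphatase of the nucleus that acts on ERK, stood 2.12-fold higher (95% interval 1.87 to 2.41) in the authors' deposited table. Its log2 fold change there was 1.09 ± 0.09 (SE) with an adjusted p of 3.69e-30, at a mean signal of 1335. DUSP6 (ENSG00000139318.8), which acts on ERK in the cytoplasm, rose 1.96-fold (1.52 to 2.53) in the authors' deposited table with an adjusted p of 2.12e-06. Its mean signal was 219, and its SE of 0.19 was the largest of the 10. DUSP4 (ENSG00000120875.9), which acts on ERK and other MAP kinases in the nucleus, rose less, by 1.61-fold (1.49 to 1.75) in the authors' deposited table with an adjusted p of 2.18e-29. Its mean signal was 5716, with an SE of 0.06 on the log2 scale. Signals are not given per length, so levels are not ranked between genes.

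A long noncoding gene named after DUSP5, DUSP5-DT (ENSG00000273143.2), was higher as well, with a log2 fold change of 3.33 ± 0.84 (SE) and an adjusted p of 0.00046 in the authors' deposited table. Its mean signal was 13.2, about as low as that of SPRY4-AS1 (ENSG00000231185.9) at 10.2. SPRY4-AS1, named as antisense to SPRY4, had a log2 fold change of 1.19 ± 0.86 and an adjusted p of 0.315 in the authors' deposited table. The kit marks strand per the labels, but the sources used here do not say whether counting used it. Reads of SPRY4 and of its antisense partner may therefore not be separated.

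Among the Sprouty genes, SPRY4 was higher and SPRY2 was not called. Sprouty proteins are intracellular inhibitors of signalling from receptor tyrosine kinases to RAS. SPRY4 (ENSG00000187678.10) had the largest fold of the 10, 2.16-fold (1.75 to 2.67), with a log2 fold change of 1.11 ± 0.16 (SE) and an adjusted p of 1.51e-11 in the authors' deposited table. SPRY2 (ENSG00000136158.12) had a log2 fold change of 0.23 ± 0.18 with an adjusted p of 0.343 in the authors' deposited table. Its 95% interval ran from -0.11 to 0.58, so it includes both no change and a rise of 1.49-fold. The SPRY4 interval of 0.81 to 1.42 lies wholly above it. The difference between the pair was not tested.

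The SPRED genes went in opposite directions. SPRED proteins are membrane-bound relatives of Sprouty that bring neurofibromin, an off-switch of RAS, to the membrane. SPRED1 (ENSG00000166068.13) fell to 0.79 of its EV level (95% interval 0.68 to 0.92), with an adjusted p of 0.00899 in the authors' deposited table. SPRED2 (ENSG00000198369.10) rose 1.22-fold (1.06 to 1.40), with an adjusted p of 0.0187 in the authors' deposited table. Their mean signals there, 726 and 921, and their SEs, 0.11 and 0.10 on the log2 scale, were alike. The SPRED2 call is lost at an adjusted p threshold of 0.01, and the SPRED1 call is not. NF1, which encodes neurofibromin, had a log2 fold change of 0.16 ± 0.06 and an adjusted p of 0.0286 in the authors' deposited table. Centred on the median of all genes, its adjusted p became 0.0752.

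The ETS factors and PHLDA1 were higher too. ETV4 (ENSG00000175832.13) rose 1.54-fold (1.32 to 1.80) with an adjusted p of 5.66e-07 in the authors' deposited table. ETV5 (ENSG00000244405.8), its close relative, rose 1.46-fold (1.23 to 1.74) with an adjusted p of 0.000114 in the authors' deposited table. Their relative ETV1 rose by a log2 fold change of 0.55 ± 0.15 with an adjusted p of 0.00155 in the authors' deposited table, so the 3 intervals overlap. PHLDA1 (ENSG00000139289.14), a pleckstrin-homology-like protein, rose 2.0-fold (1.82 to 2.19), with an adjusted p of 3.63e-48 in the authors' deposited table. It had the smallest adjusted p of the 10 members, at a mean signal of 2642.

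**Figure D1:**
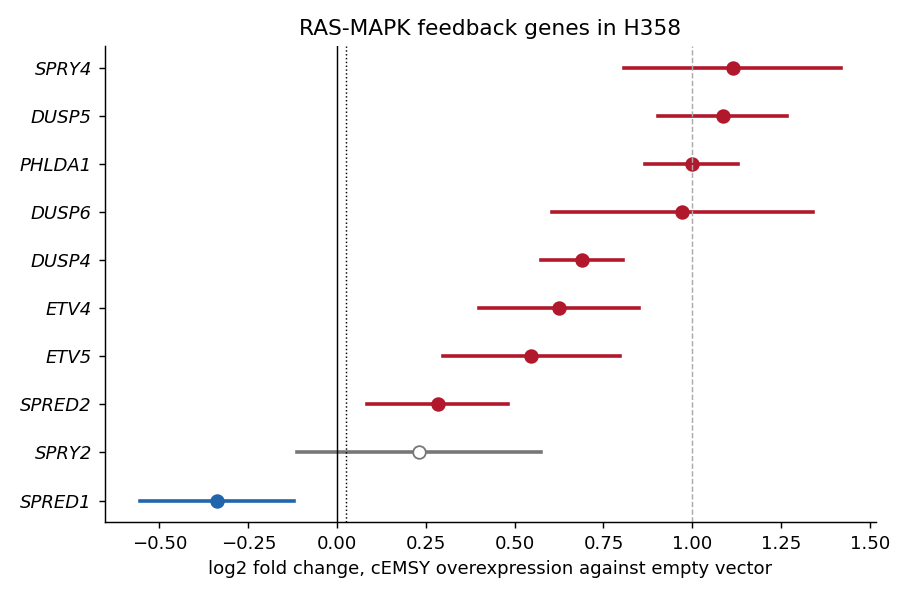
Log2 fold change of each feedback gene in H358, cEMSY overexpression over empty vector, from the authors' deposited table; points are estimates and lines their 95% intervals. Red is higher, blue lower and an open grey point not called at an adjusted p of 0.05; the dotted line is the median of all genes with an adjusted p and the dashed line a log2 fold change of 1. SPRED1 alone lies below 0, and the SPRY2 interval includes 0.

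Ordered by fold change, SPRY4, DUSP5, PHLDA1 and DUSP6 lay between 1.96-fold and 2.16-fold, and their intervals overlap one another. DUSP4, ETV4 and ETV5 followed between 1.46-fold and 1.61-fold, also with overlapping intervals. The DUSP4 interval, up to 0.81 on the log2 scale, lies below those of DUSP5, from 0.90, and PHLDA1, from 0.87. Among the 19154 genes of the authors' deposited table, 11.5% had a higher log2 fold change than SPRY4, 23.3% than ETV5 and 76.7% than SPRED1. For the 8 members that rose, the share of genes above them ran from 11.5% to 33.7%. The authors' own call, which in this table equals an adjusted p under 0.05 with a log2 fold change beyond 1 in either direction, was positive for 2 members, DUSP5 and SPRY4. It was positive and upward for 6.60% of the 19154 genes, and positive and downward for 2.87%. PHLDA1 lay just outside it.

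The wider pathway in H358 did not move in 1 direction. Over 6 other lists of RAS-MAPK genes, 78 had an adjusted p in the authors' deposited table, of which 23 were higher, 28 were lower and 27 were not called, with a median log2 fold change of -0.09. The lists are given from the cell surface inward. Among EGF-family ligands, which open the route at the receptor, 2 of 9 were higher and 5 lower, with a median of -0.25. NRG2, a neuregulin, had the largest rise among them at 1.77 ± 0.35 (log2, SE; adjusted p 3.1e-06) in the authors' deposited table. HBEGF, a heparin-binding ligand of EGFR, followed at 0.90 ± 0.21 (adjusted p 0.000101) in the authors' deposited table. The largest falls were in NRG4, at -2.04 ± 0.54 (adjusted p 0.001), and TGFA, at -1.57 ± 0.12 (adjusted p 1.19e-36), in the authors' deposited table. TGFA, another ligand of EGFR, was the better measured of that pair, with a mean signal of 503 against 29.2 for NRG4.

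Receptor tyrosine kinases were called lower more often than higher, with 5 of 10 lower and 2 higher and a median of -0.13. AXL, the receptor of GAS6, fell by 1.31 ± 0.07 on the log2 scale (adjusted p 5.63e-75) and FGFR2 by 1.96 ± 0.32 (adjusted p 2.17e-08) in the authors' deposited table. ERBB3, a neuregulin receptor with little kinase activity of its own, stood at 1.01 ± 0.26 (adjusted p 0.00054), and FGFR3 at 0.74 ± 0.24 (adjusted p 0.00797), in the authors' deposited table. Of 10 adaptors and exchange factors, which link receptors to RAS, 1 was higher, 3 were lower and 6 were not called. The rise was in the adaptor SHC1, at 0.50 ± 0.07 (adjusted p 2.25e-11), and the largest fall in the RAS activator RASGRP1, at -1.33 ± 0.25 (adjusted p 5.77e-07), in the authors' deposited table. SOS1, the RAS exchange factor at the receptor, was at -0.30 ± 0.12 with an adjusted p of 0.0485 in the authors' deposited table, which passes 0.05 narrowly.

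The RAS, RAF, MEK and ERK genes themselves split evenly, with 4 higher, 4 lower and 6 not called of 14. MAPK3, which encodes the kinase ERK1, rose by 1.05 ± 0.13 on the log2 scale (adjusted p 1.51e-14) in the authors' deposited table. MRAS, a RAS relative, rose by 0.84 ± 0.26 (adjusted p 0.00591) and RRAS2 fell by 0.42 ± 0.10 (adjusted p 0.000234) in the authors' deposited table. The list of other ERK output genes leaned down, with 5 higher, 9 lower and 4 not called of 18 and a median of -0.24. That list is mixed, holding also ELK1, ELK3, ELK4, RPS6KA1, RPS6KA3 and PHLDA3, so its counts do not measure ERK activity. FOSL1, an AP-1 subunit, fell by 2.26 ± 0.11 (adjusted p 1.14e-95) and EMP1, a membrane protein, by 2.88 ± 0.19 (adjusted p 2.85e-48) in the authors' deposited table. PLAUR, the urokinase receptor, rose by 0.71 ± 0.12 (adjusted p 1.06e-08) in the authors' deposited table.

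The list most like the members was that of other feedback genes and inhibitors, with 9 of 17 higher, 2 lower and 6 not called and a median of 0.47. That list is mixed too, holding also IER3, DUSP8, DUSP10 and DUSP16, so its counts do not measure inhibition of the pathway. Of these, IER3 and DUSP16 were higher, and DUSP8 and DUSP10 were not called. The remaining SPRED and Sprouty genes led it: SPRED3 stood at 2.0 ± 0.42 (adjusted p 1.84e-05) and SPRY1 at 1.88 ± 0.48 (adjusted p 0.000499) in the authors' deposited table. Both had low mean signals there, 42.1 and 36.9. The falls were in DUSP1, a phosphatase of p38, JNK and ERK induced by stress, at -0.64 ± 0.07 (adjusted p 3.54e-18), and in RASA2, a RAS off-switch, at -0.40 ± 0.12 (adjusted p 0.00356), in the authors' deposited table. DUSP1 thus went against DUSP4, DUSP5 and DUSP6 within its own gene family.

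**Figure D2:**
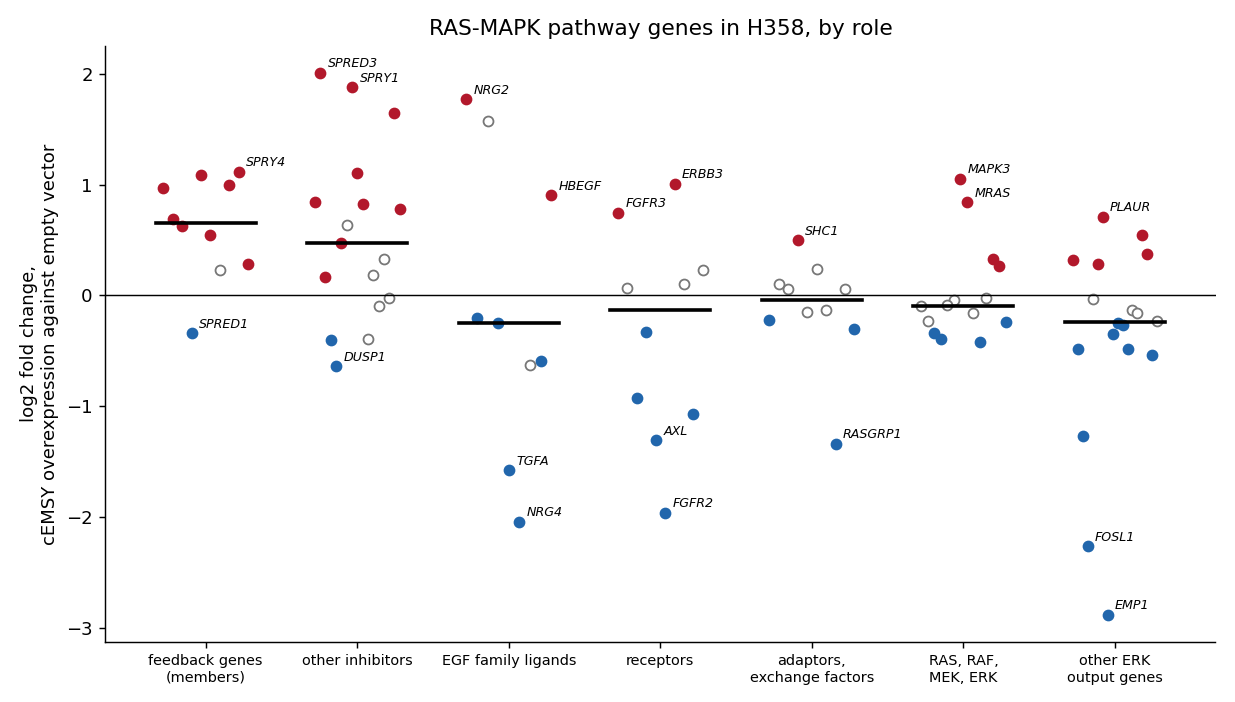
Log2 fold change in H358, cEMSY overexpression over empty vector, for every listed RAS-MAPK gene with an adjusted p in the authors' deposited table, grouped by role. Each point is a gene (red higher, blue lower, open not called at an adjusted p of 0.05) and black bars are medians. The medians were 0.66 for the feedback genes and 0.47 for the mixed list marked other inhibitors. They lay between -0.25 and -0.04 for the other 5 lists.

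In LLC1 the gene table gives a signal in each of 6 libraries, but only for rows that the authors had selected as changed, and 8 of the 10 members are not in it. Nothing can be said here of those 8 in LLC1. Rows with a mean of 0.5 or more were tested with limma on log2(value + 1), which kept 2111. Of these 47.3% were higher and 52.6% lower at an adjusted p of 0.05, so a call by itself says little in this table, and the values and their direction are the information. The table also lists 1 epithelial marker of 6, 1 lung epithelial of 4, 1 leukocyte of 5, 1 fibroblast of 5 and no endothelial marker. Since rows were selected, the labelled cell type could not be checked from it.

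Both listed members were lower with cEmsy overexpression. Dusp5 (chr19:53529109-53542431, plus strand, mm10) had signals of 31.6, 32.5 and 30.4 in the EV libraries and 15.0, 14.3 and 12.2 in the overexpression libraries. Every overexpression library lay below every EV library, and the gap between the groups was wider than either group's own range. Groups did not overlap in 2106 of the 2111 tested rows, so this does not set Dusp5 apart. The means were 31.5 ± 1.08 and 13.9 ± 1.44 (SD, n = 3 each), a ratio of 0.440, with a log2 fold change of -1.13 ± 0.08 (SE) and a limma adjusted p of 4.87e-07. The 95% interval of that change ran from -1.32 to -0.95.

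Phlda1 (chr10:111506286-111508645, plus strand, mm10) had signals of 159.5, 167.2 and 189.0 in the EV libraries and 82.2, 85.2 and 70.6 with overexpression. The groups again did not overlap, as in nearly all tested rows, although the EV libraries were more spread than for Dusp5. The means were 172 ± 15.3 and 79.3 ± 7.73 (SD, n = 3 each), a ratio of 0.461, with a log2 fold change of -1.11 ± 0.09 (SE) and a limma adjusted p of 1.13e-06. An annotated gene lies on the opposite strand of each, AC137853.2 at Dusp5 and Gm28592 at Phlda1, and how strand was used in these values is not given. The 95% interval of its change ran from -1.31 to -0.90 and overlaps that of Dusp5 nearly throughout.

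The scale of the table itself differed between the groups. The median log2(value + 1) over listed rows was 1.98 to 2.03 in EV and 1.78 to 1.85 in overexpression libraries, and the median log2 fold change of tested rows was -0.58. With each library centred on its median, the log2 fold change of Dusp5 was -0.93 (adjusted p 9.83e-07 in limma) and that of Phlda1 was -0.90 (adjusted p 1.34e-06 in limma). Among annotated rows alone, which leave out loci without a gene name, the median was 0.54, so both members fell where the typical listed gene rose.

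**Figure D3:**
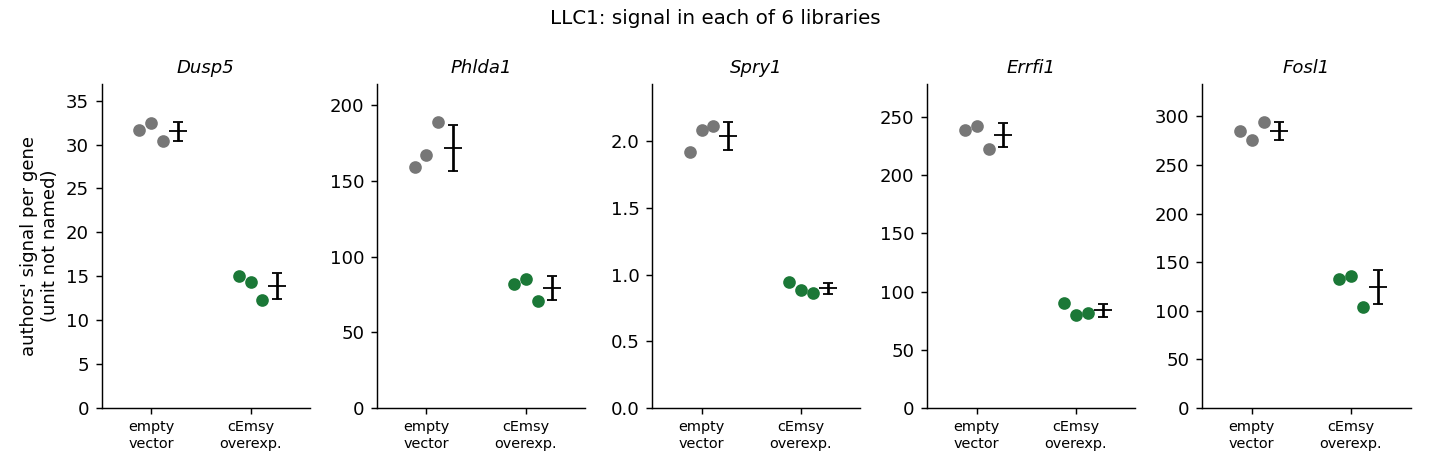
Signal in each of the 6 LLC1 libraries for Dusp5, Phlda1 and 3 further RAS-MAPK genes named in the text; grey points are EV and green points cEmsy overexpression libraries, and crosses with bars are mean and SD of 3. Each vertical axis starts at 0 and has its own range. In all 5 genes the overexpression libraries lie below the EV libraries. Hmga2, which was lower too, and Phlda3, Hras and Egfr, which were higher, are not shown.

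Of the other pathway genes, 7 were in the LLC1 table. Errfi1, which encodes an inhibitor of EGFR, had signals of 239, 242 and 223 in EV and 90.5, 80.0 and 81.8 with overexpression, a log2 fold change of -1.47 ± 0.07 (limma adjusted p 3.23e-08). Spry1, of the same family as the members Spry2 and Spry4, had 1.92, 2.09 and 2.12 in EV and 0.942, 0.885 and 0.863 with overexpression. Its log2 fold change was -0.68 ± 0.08 (limma adjusted p 1.28e-05), a value that the added 1 holds down at so low a signal, and -1.10 with 0.1 added instead. Fosl1 had 285, 276 and 294 in EV against 132, 136 and 104, a log2 fold change of -1.20 ± 0.10 (limma adjusted p 1.22e-06). Hmga2, a chromatin protein of growing and transformed cells, went from 115 ± 2.24 to 41.6 ± 8.90 (SD, n = 3 each). Phlda3, a relative of Phlda1 that holds back AKT, rose from 49.0 ± 1.37 to 103 ± 11.8, and Hras from 21.5 ± 1.92 to 43.4 ± 5.30 (SD, n = 3 each), both called in limma. Egfr stood at 0.0672 ± 0.0248 in EV and 0.206 ± 0.0347 with overexpression (SD, n = 3 each) and fell under the minimum mean of 0.5. Tested without that minimum, it was higher, with a log2 fold change of 0.18 and a limma adjusted p of 0.00126, whereas EGFR was lower in the authors' deposited table for H358, at -0.33 ± 0.10. In none of these genes did the groups overlap, which held for 2106 of the 2111 tested rows.

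Other listed genes tracked each member closely over the 6 libraries. By the distance between row-centred log2 values, nearest to Dusp5 among 1510 annotated genes were Clcf1 at 0.131, Ube2cbp at 0.131 and St6galnac4 at 0.133. Nearest to Phlda1 were Gcat at 0.125, Armc6 at 0.126 and Hirip3 at 0.153. The distance sums over the libraries, so 0.131 is a small part of the change of -1.13 on the same log2 scale. Clcf1 for example had a mean signal of 98.7 in EV and 45.5 with overexpression. With 6 libraries in 2 groups, a small distance records a fall of similar size on the log2(value + 1) scale. The added 1 holds down falls at low signal. Ube2cbp went from a mean of 2.13 in EV to 0.38 with overexpression, a steeper fall in signal than that of Dusp5.

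Side by side, the lines gave opposite signs for both members found in each. DUSP5 was at 1.09 ± 0.09 (SE) in the authors' deposited table for H358 and at -1.13 ± 0.08 in the limma fit for LLC1, both log2 fold changes of overexpression over EV. PHLDA1 was at 1.00 ± 0.07 in the authors' deposited table for H358 and at -1.11 ± 0.09 in LLC1. Of 9 list genes in both tables, 7 were called in both lines, 5 of them in opposite directions. Besides the members these were ERRFI1 and SPRY1, higher in H358 and lower in LLC1, and HRAS, the reverse. FOSL1 was lower and PHLDA3 higher in both. The share of opposite directions over all genes called in both lines was not computed, so 5 of 7 cannot be read as particular to this pathway. HMGA2, lower in LLC1, was at -0.15 ± 0.10 with an adjusted p of 0.275 in the authors' deposited table for H358. The lines share no libraries, and the difference between them was not tested, since H358 has no values per library here and the LLC1 rows were selected for change. Species, line, quantifier and the circle expressed differ together and cannot be told apart.

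**Figure D4:**
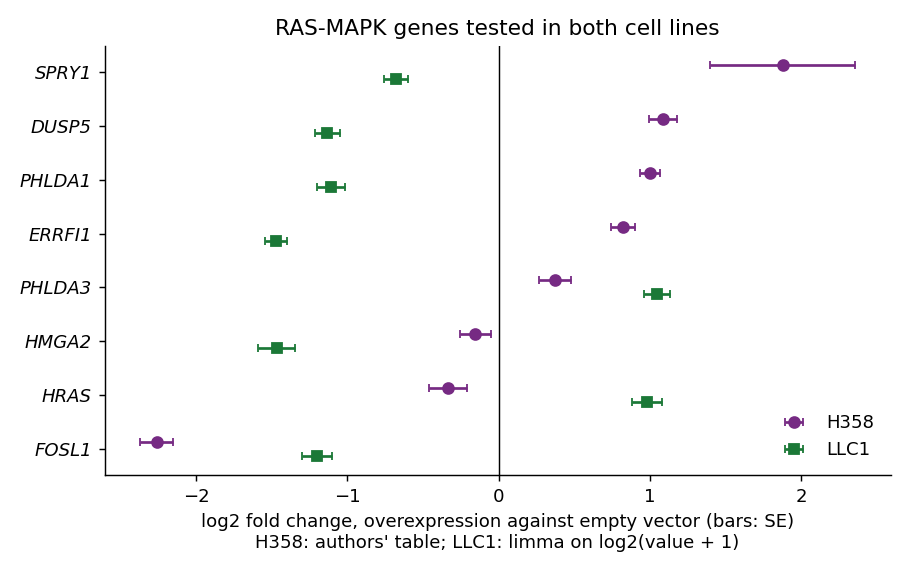
Log2 fold change of overexpression over empty vector for the 8 RAS-MAPK genes tested in both lines, with SE bars; purple circles are H358 from the authors' deposited table and green squares LLC1 from limma on log2(value + 1). SPRY1, DUSP5, PHLDA1 and ERRFI1 lie right of 0 in H358 and left of 0 in LLC1, HRAS lies the other way round, and FOSL1 and PHLDA3 lie on the same side in both.

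In the drug panel, Spred1 and Spred2 appear as circular RNAs, closed loops made when the end of an exon is spliced back to the start of an earlier one. Each circle spans exons 2 to 5 of a transcript of 7 exons, all 4 of them coding, with a spliced length of 553 bases for Spred1 and 493 for Spred2. The circles are not the SPRED messenger RNAs, whose levels in these libraries were not analysed here. Between 89.5% and 100.0% of the values above 0 in a library were whole multiples of 1 read's worth, which included every value above 0 of the Spred1 and Spred2 circles and gives the reads behind them. Listed circles held 307 to 350 reads per DMSO library, 2285 to 4141 after crizotinib with cisplatin, 7996 to 8921 after dactinomycin and 4012 to 4842 after oxaliplatin. The authors named these circles as differential, and only 4 or 5 of the 472 were above 0 in a DMSO library. Calls and their shares therefore describe that selection, and reads in listed circles are not library depth. On the same length, 1 read was worth more in every DMSO library than after dactinomycin, oxaliplatin or crizotinib with cisplatin. A value of 0 in DMSO is accordingly a weak statement, and the value that 3 reads would have had is given beside it. Reads and these limits cover counting error only.

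The Spred2 circle was at 0 in all 3 DMSO libraries, where 3 reads would have been worth 1351, 2048 and 873. After crizotinib with cisplatin, an inhibitor of MET and ALK with a DNA-crosslinking platinum compound, it stood at 6802, 16385 and 7621, from 49, 98 and 127 reads. All 3 of these libraries lay above what a DMSO value of 0 allows, with a mean of 10269 ± 5312 (SD, n = 3) and a limma adjusted p of 0.000797. In that treatment 22.9% of the 472 circles were called higher than in DMSO. After dactinomycin, an inhibitor of transcription, the Spred2 circle stood at 3046, 2315 and 2586, from 68, 45 and 47 reads (limma adjusted p 0.000375). After oxaliplatin, another platinum compound, it stood at 3825, 2134 and 3966, from 40, 27 and 51 reads (limma adjusted p 0.000464). These 6 libraries also exceeded the highest DMSO limit, the lowest of them narrowly at 2134 against 2048. Calls were the rule there, with 92.4% of the circles higher after dactinomycin and 69.7% after oxaliplatin.

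Doxorubicin, a DNA intercalator, gave an uneven picture for Spred2. Its libraries stood at 0, 0 and 9895, the last from 59 reads, and the test did not call the group (limma adjusted p 1.00). Bortezomib, a proteasome inhibitor, and pemetrexed with cisplatin left the Spred2 circle at 0 in all 3 libraries each. In those treatments and doxorubicin, 1.06%, 1.48% and 0.636% of the circles were called higher.

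The Spred1 circle was found in fewer libraries and at lower values. It was at 0 in DMSO, where 3 reads would have been worth 1204, 1826 and 779, and at 0 in every doxorubicin, bortezomib and pemetrexed library. After dactinomycin it stood at 599, 1468 and 1128, from 15, 32 and 23 reads, a mean of 1065 ± 438 (SD, n = 3; limma adjusted p 0.000194). After oxaliplatin it stood at 938, 352 and 971, from 11, 5 and 14 reads, a mean of 754 ± 348 (SD, n = 3; limma adjusted p 0.000433). Those values lie below the highest DMSO limit of 1826, that of 1 library. The dactinomycin value of 1468 exceeded the limits of 1204 and 779, and that of 1128 exceeded 779. The oxaliplatin values of 938 and 971 also exceeded 779, while 599 after dactinomycin and 352 after oxaliplatin lay below all 3 limits. Whether the reads differ from 0 in all 3 DMSO libraries beyond counting error was not tested. After crizotinib with cisplatin the Spred1 circle was at 0, 0 and 1605, the last from 30 reads (limma adjusted p 0.207). Without the first or the second of these libraries, both at 0, that adjusted p became 0.0472 or 0.0459. With each library centred on its median, the dactinomycin and oxaliplatin calls of both circles were lost, with limma adjusted p between 0.362 and 0.884. Most listed circles were above 0 in those libraries and at 0 in DMSO, so centring takes away the rise of the typical listed circle. The loss means only that no rise beyond that one was called. That centring could not bear on the Spred2 call after crizotinib with cisplatin, since most listed circles were at 0 in those libraries and in DMSO and their medians are 0.

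**Figure D5:**
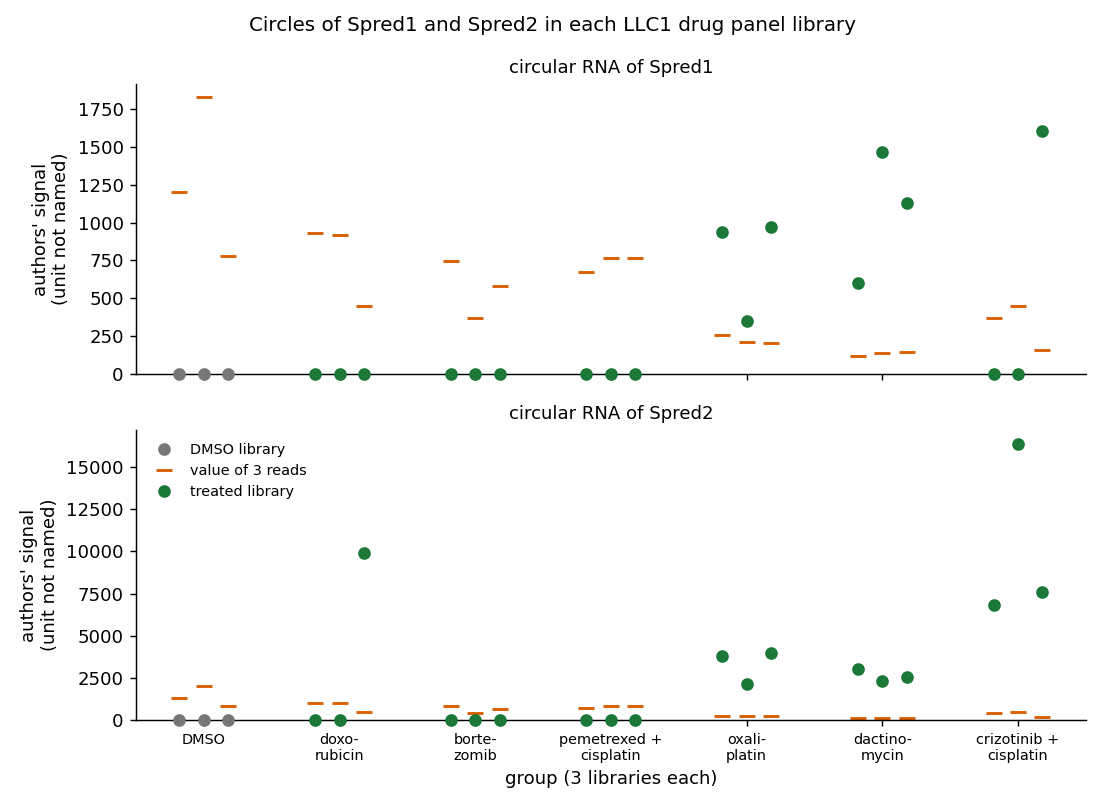
Signal of the Spred1 (top) and Spred2 (bottom) circular RNA in each of the 21 LLC1 drug panel libraries, in the authors' unit, which is not named. Points are libraries (grey DMSO, green treated) and orange dashes are the value that 3 reads would have had in that library. After crizotinib with cisplatin the 3 Spred2 values, from 6802 to 16385, lie above every DMSO dash, whereas all Spred1 values lie below the highest DMSO dash.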

How the data were processed

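Stranded total RNA libraries were made after removal of ribosomal RNA, per the labels' protocols. Per the submitters' processing notes, the tools were FastQC, STAR, featureCounts and MultiQC; mm10 and hg19 are the builds given. The authors' deposited signal values, per gene or per circular RNA, carry no named unit. For H358 the authors' deposited table holds a mean signal, log2 fold changes, score columns (standard error and statistic) and p-values, per the file headers. The 1193 genes with an empty adjusted p-value were counted as neither called nor tested.

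The LLC1 signal was analysed on log2(value + 1) in limma 3.58.1 (R 4.3.3), with the prior variance following a trend in the mean, for rows averaging 0.5 or more. This scale compresses changes at low signal. The 21 drug panel libraries entered 1 fit with no filter, adjusted by Benjamini-Hochberg within a treatment, at 0.05. Groups at 0 in every library add no spread to that fit, so its small adjusted p-values partly reflect them. Fits were tested on simulated data. Low LLC1 gene values fell on no read steps (at most 13.7% whole within 0.01), so depth there is unknown; of circle values above 0, 89.5% to 100.0% per library were whole reads within 0.002. The LLC1 control columns show their group but no library number. Count tests had been foreseen for files with counts; these hold none. Hosts and exons of circles were read from GENCODE M21.

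Members and lists were chosen with earlier results of these data known. Of each other list the text names the 2 largest rises and the 2 largest falls among called genes (some items are not reported here), for likeness the 3 nearest LLC1 genes, and also, chosen after their values were seen, list genes present in both lines, NF1, the Rasa2 circle and genes named after members. Alternatives were other thresholds, adjustments, centring, pseudocounts and filters, a replicate block and leaving out each library.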

Additional observations from a re-analysis of the deposited data

How the results depend on the processing

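Requiring a log2 fold change of 1 or more beside the adjusted p left 2 of the 9 called H358 members, 2 higher and 0 lower. No other threshold or adjustment moved that count by over 1.5 times, and SPRED2 was the member lost at 0.01. With the adjustment taken over all genes with a p-value, SOS1 had an adjusted p of 0.0515 in that recalculation of the authors' deposited table. In LLC1, Dusp5 lay between -1.19 and -0.93 and Phlda1 between -1.16 and -0.90 (log2) over all alternatives, left-out libraries included, with limma adjusted p at most 1.46e-05 and 2.38e-05. Both members remained called lower with each library left out. In the drug panel, 5 calls of members' circles became 1 with libraries centred on their median. For dactinomycin and oxaliplatin, that centring takes away the rise of the typical listed circle, so the lost calls do not bear on a rise over DMSO. The 1 left, Spred2 after crizotinib with cisplatin, could not move, because most listed circles were at 0 in those libraries and in DMSO, so that their medians are 0. Leaving out each library gave 5 to 6 calls. With a replicate block the count was 5. Deviations of same-numbered treated and DMSO libraries had r from -0.0922 to 0.153 over 18 pairs, 2 of them over 0.1. Only 4 or 5 of the 472 circles were above 0 in a DMSO library. Nearly all DMSO deviations were therefore 0, and these r could not show whether the numbers pair the libraries. No paired analysis was possible because the LLC1 control columns carry no library numbers and H358 has no values per library. Without doxorubicin replicate 3, the Spred2 circle after doxorubicin was at 0 throughout and gave no value. Among single genes and circles, 514 values under alternatives kept their direction and side of the threshold, 57 lost the call, 42 of them under the fold minimum, 2 gained one and 0 reversed.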

Other observations

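Circles of other pathway genes were in the drug panel too. A circle of exons 2 to 9 of Rasa2 (chr9:96576286-96611499, minus strand, mm10), which encodes a RAS off-switch, was at 0 in DMSO, where 3 reads would have been worth 912, 1383 and 590. It stood at 2250, 2371 and 932 after crizotinib with cisplatin, from 24, 21 and 23 reads, and at 908, 660 and 706 after dactinomycin. After oxaliplatin it stood at 710, 747 and 683. Under limma all 3 treatments passed, with adjusted p of 3.98e-11, 1.02e-11 and 1.64e-11. The spread in that fit is pooled over groups, and groups at 0 in every library add none to it. The SE was 0.47 on the log2 scale, against 1.865 for the Spred1 circle. These p-values therefore measure only in part the spread where the circle was found. The dactinomycin and oxaliplatin values and the crizotinib value of 932 lie below the highest DMSO limit, that of 1 library. They all lie above the lowest DMSO limit of 590, and a difference in reads from DMSO was not tested. The Rasa2 circle was at 0 after doxorubicin, bortezomib and pemetrexed with cisplatin. The human gene RASA2 was among the lower genes in H358 with cEMSY overexpression, which is another line and another comparison.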
